A study of Mus musculus with 126 samples.

Results

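The libraries described here are the colon RNA-seq libraries of mice fed a low-salt diet at night, which are all 18 columns of 1 deposited table and 18 of the 126 libraries of the series. The series covers 7 conditions, each sampled at 6 times with 3 libraries a time: gut-specific Bmal1 knockout and MR knockout mice and their wild type on ordinary chow, and C57BL/6 animals given either a low-salt or a high-salt diet by day or by night. The animals of the low-salt, night-fed condition were 8-week-old male C57BL/6 mice kept in 12 h of light and 12 h of dark, the labels name no genetic alteration for them, and every library of the condition shares that diet and feeding window. Polyadenylated RNA of the colon was sequenced at ZT0, ZT4, ZT8, ZT12, ZT16 and ZT20, where ZT (zeitgeber time) counts hours from lights on. ZT12 falls at the start of the dark, feeding phase of the day and ZT0 at its end. The question addressed was how the colon transcriptome changes over the day when sodium-poor food is taken in the natural active phase. The labels name no animal for a library, so each p-value measures the spread between these libraries only.

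The mammalian clock is a feedback loop of transcription. ARNTL (BMAL1) pairs with CLOCK or NPAS2, binds E-box sequences and switches on the Per, Cry and Nr1d genes, whose products then repress the pair or, in the case of the REV-ERB proteins, the Arntl gene itself. Output factors such as DBP, TEF and NFIL3 pass the rhythm on through D-box sequences, and in the gut the clock, feeding and the resident bacteria all drive daily rhythms of transport, defence and cell division.

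The promoters of 5 clock genes are shown because they carry the 3 kinds of element through which this loop works and because the transcripts behind them peaked at different times of day in these libraries. The sequences are from RefSeq, build GRCm38.p6, run 5′ to 3′ on the gene's strand from 250 bases before to 50 bases after an annotated start, and are in lower case except the motifs. Capitals mark an E-box (CACGTG) in Ciart and Cry1, a D-box (TTATGTAA or TTACGTAA) in Per3 and the core of a REV-ERB/ROR element (TAGGTCA) in Nfil3 (read on the other strand, TGACCTA) and Arntl. Both strands were searched for these exact letters only, so variant forms of an element are neither marked nor counted. No marked site overlaps another. The Ciart window is chr3:95882179-95882478 (minus strand), the Cry1 window chr10:85185005-85185304 (minus strand), the Per3 window chr4:151044616-151044915 (minus strand), the Nfil3 window chr13:52980990-52981289 (minus strand) and the Arntl window chr7:113207261-113207560 (plus strand).
Ciart: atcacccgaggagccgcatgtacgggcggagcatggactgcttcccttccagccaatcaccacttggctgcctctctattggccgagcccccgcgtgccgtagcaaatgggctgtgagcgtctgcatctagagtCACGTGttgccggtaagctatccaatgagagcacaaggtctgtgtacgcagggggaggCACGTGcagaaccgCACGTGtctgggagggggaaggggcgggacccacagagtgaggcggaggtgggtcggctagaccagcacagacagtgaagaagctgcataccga
Cry1: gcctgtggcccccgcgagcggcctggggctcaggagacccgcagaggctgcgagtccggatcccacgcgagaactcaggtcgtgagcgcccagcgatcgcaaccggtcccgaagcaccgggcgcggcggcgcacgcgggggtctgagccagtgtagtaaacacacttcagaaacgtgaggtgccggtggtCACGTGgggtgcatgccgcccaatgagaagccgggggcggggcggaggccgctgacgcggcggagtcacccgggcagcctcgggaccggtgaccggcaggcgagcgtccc
Per3: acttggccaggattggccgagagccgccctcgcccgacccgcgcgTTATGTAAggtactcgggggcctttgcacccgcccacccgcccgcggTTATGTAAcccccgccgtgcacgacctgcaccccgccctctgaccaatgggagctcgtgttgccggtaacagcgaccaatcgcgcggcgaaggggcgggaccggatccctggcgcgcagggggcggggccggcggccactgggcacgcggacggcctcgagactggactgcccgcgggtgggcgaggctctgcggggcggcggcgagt
Nfil3: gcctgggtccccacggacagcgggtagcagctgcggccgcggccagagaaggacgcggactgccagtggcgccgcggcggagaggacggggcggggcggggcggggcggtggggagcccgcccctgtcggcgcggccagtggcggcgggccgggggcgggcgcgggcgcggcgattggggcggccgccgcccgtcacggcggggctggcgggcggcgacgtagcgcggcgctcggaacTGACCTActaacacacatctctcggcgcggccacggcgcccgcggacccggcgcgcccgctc
Arntl: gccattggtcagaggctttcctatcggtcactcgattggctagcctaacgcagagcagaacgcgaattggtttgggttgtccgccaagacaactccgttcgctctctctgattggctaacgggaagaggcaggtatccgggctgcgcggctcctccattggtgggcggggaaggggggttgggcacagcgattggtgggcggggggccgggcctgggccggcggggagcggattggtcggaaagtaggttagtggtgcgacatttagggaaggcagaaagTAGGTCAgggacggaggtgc
Ciart holds 3 E-boxes and Cry1 holds 1, Per3 holds 2 D-boxes, and Nfil3 and Arntl hold 1 REV-ERB/ROR core each, that of Arntl 30 bases after this start. Arntl has another start in the table, whose window (chr7:113207215-113207514) holds none of the motifs. Ciart peaked at ZT12.2, Cry1 at ZT20.6, Per3 at ZT13.7, Nfil3 at ZT0.429 and Arntl at ZT23.97. Of all 32851 promoters of this length in the table, 7.15% hold an E-box, 1.06% a D-box and 2.61% the REV-ERB/ROR core. Among the 11143 promoters of genes tested here the shares were 10.2%, 0.691% and 1.94%. Single E-boxes also lie in 1 promoter of Per1, in both promoters of Tef and in that of Bhlhe41. The other Per1 promoter and the windows of Clock, Npas2, Arntl2, Cry2, Nr1d1, Nr1d2, Rora, Dbp and Hlf hold none of these letters. Motif shares by peak time are not compared here. A promoter was in the table for 1282 of 1624 rhythmic genes with their own symbol (78.9%) and for 80.2% of such genes tested.

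Values are FPKM, fragments scaled to transcript length and to the mapped total, divided by a scale factor for each library, and are called scaled FPKM below. Sums of the deposited FPKM ran from 383693.6 to 622638.8 a library, and the typical distance between 2 libraries of the same time was a median absolute log2 difference of 0.266 over genes (range 0.119 to 0.423). Read depth is not given in the table. All 10 colon epithelium markers were present, with a summed level of 9372 to 15602 scaled FPKM. None of the 6 fibroblast, 6 endothelial and 8 neuron and glia markers reached a mean of 1 scaled FPKM, and 2 of 8 smooth muscle markers did. The largest axis of variation (39.2% of the variance) was not time of day. It followed how the library's deviation depended on transcript length, and 7 libraries stood apart on that score: ZT0 replicate 2, ZT4 replicates 2 and 3, ZT8 replicate 3, ZT12 replicates 1 and 2, and ZT16 replicate 3. No ZT20 library is among them at the limit used, -0.09, which was set after seeing the data. ZT20 replicate 1 (-0.041) lay between ZT16 replicate 3 (-0.098) and the next library up, ZT8 replicate 2 (0.065). Time of day was the second axis (17.5%). The summed level of the 11 goblet cell markers was 12340 to 16296 scaled FPKM in those 7 libraries and 6150 to 11060 in the other 11. The part of the length score in single results was not tested beyond the 2 fits given beside the counts, 1 adjusted for the score and 1 without the 7 libraries. The latter fit lacks 2 of 3 libraries at ZT4 and at ZT12 and has 5 residual degrees of freedom. Its counts therefore rest on a single library at each of those times, and calls kept or lost in it decide little.

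Of 11003 genes tested, 1625 (14.8%) had a 24 h rhythm at an adjusted p below 0.05 (limma, F test on the cosine and sine of a daily period over the 6 time means), and 858 (7.8%) differed between the 6 times in a test that assumes no shape. Of those 858 genes, 827 (96.4%) were also rhythmic. The amplitude, the log2 distance from mean to peak, ranged from 0.12 to 2.89 among the rhythmic genes with a median of 0.33, against 0.15 over all genes tested. It reached 0.5 in 346 rhythmic genes and 1 in 41. Adjusted for the length score, 4233 genes (38.5%) were rhythmic, among them 1624 of the 1625, and the fitted peak of these moved by 1.23 h at most. Without the 7 libraries the count was 1076.

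Peaks were spread over the whole day with 2 crests, which the plot of peak times by gene list shows. Gene coordinates given below are from the GENCODE annotation of GRCm38. In 4 h windows, 360 rhythmic genes peaked around ZT12 and 299 around ZT4, against 184 around ZT8. The rhythmic MHC class II genes, the mitosis genes and 8 of 10 rhythmic antimicrobial genes peaked in the first hours of light, as did Npas2, while Arntl peaked at lights on. Rhythmic genes of drug metabolism and sodium transport and of the guanylin and aquaporin group peaked near or after lights off. The rhythmic DNA replication genes and most of the rhythmic endoplasmic reticulum (ER) folding genes peaked late in the night.

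**Figure D1:**
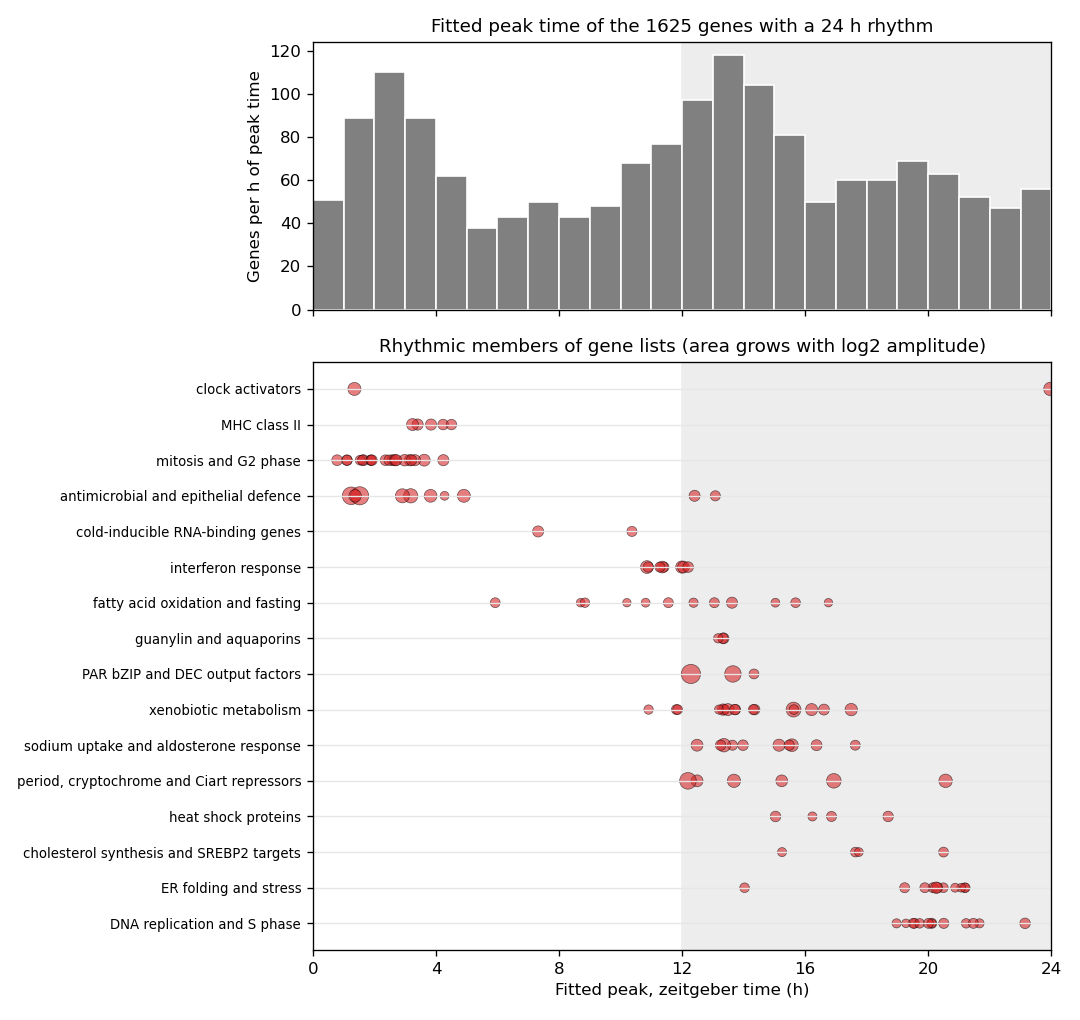
Top, number of the 1625 rhythmic genes per hour of fitted peak time (x axis, zeitgeber time in h). Bottom, peak time of each rhythmic member of 16 gene lists, 1 circle a gene, with area growing with the log2 amplitude and the dark phase shaded. The mitosis members all lie between ZT0.789 and ZT4.24, and the DNA replication members between ZT19.0 and ZT23.1.

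Among the clock activators, Arntl (the BMAL1 gene, chr7:113207465-113314126) and Npas2 (chr1:39193731-39363236) were highest at ZT0 and lowest at ZT12. Arntl read 16.0, 12.2 and 17.3 scaled FPKM in the 3 libraries of ZT0 and 2.08, 2.35 and 2.97 in those of ZT12. Npas2 read 8.05, 7.51 and 8.14 at ZT0 and 1.59, 0.998 and 1.35 at ZT12. For both genes the libraries of these 2 times do not overlap. The amplitude was 1.19 ± 0.12 (SE) for Arntl (adjusted p = 5.69e-05, limma) with a peak at ZT23.97 ± 0.379 h, and 1.09 ± 0.08 for Npas2 (adjusted p = 3.62e-06) with a peak at ZT1.35 ± 0.287 h. Clock, the other partner of BMAL1, had a fitted amplitude of 0.28 ± 0.14 and did not pass (adjusted p = 0.375), and its libraries at ZT0 (7.69, 4.82 and 9.23) overlap those at ZT12 (2.85, 3.54 and 5.66). After adjustment for the length score, by which 38.5% of all genes were rhythmic, Clock passed too (adjusted p = 0.0277).

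In the loop that controls Arntl, Nr1d1 was high in the late light phase and Nfil3 around lights on. Nr1d1, which encodes the repressor REV-ERBα (chr11:98767932-98775333), read 2.98, 3.34 and 2.56 scaled FPKM at ZT0, 55.9, 40.8 and 44.3 at ZT8 and 2.74, 1.31 and 1.56 at ZT20. All ZT8 libraries lie above every library of ZT0 and ZT20. Its amplitude was 2.26 ± 0.09 (adjusted p = 2.58e-09) and its peak ZT9.59 ± 0.151 h, before lights off. Nr1d2 (REV-ERBβ) peaked later, at ZT12.3 ± 0.223 h, with an amplitude of 1.39 ± 0.08 (adjusted p = 2.26e-07). Nfil3, a repressor of D-box genes that is itself a REV-ERB target, read 13.3, 13.2 and 11.4 at ZT0 and 2.07, 1.97 and 1.99 at ZT12. It peaked at ZT0.429 ± 0.232 h (amplitude 1.31 ± 0.08, adjusted p = 2.84e-07). Rora did not reach the level for testing.

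All 6 genes of the period, cryptochrome and Ciart group, the repressors of the BMAL1 pair, were rhythmic and all 6 were higher in the dark phase than in the light phase (3.51% of all genes were called higher and 3.26% lower in that comparison). Per1 peaked at ZT12.5, Per3 at ZT13.7, Cry2 at ZT15.2, Per2 at ZT16.9 and Cry1 last, at ZT20.6. Per2 (chr1:91415982-91459324) read 1.65, 0.997 and 0.904 scaled FPKM at ZT4 and 16.2, 16.6 and 12.1 at ZT16, a ratio of means of 12.6. Its lowest dark library (6.47) was above its highest light library (6.11), with a dark minus light difference of 1.78 ± 0.12 log2 (adjusted p = 9.91e-07). Cry2 did not overlap between the phases either, and its difference was 1.02 ± 0.09 (adjusted p = 1.43e-05). Over all genes, 22 (0.2%) had the 9 dark libraries all above the 9 light ones and 11 (0.1%) all below, whether or not they were called. Ciart (chr3:95878503-95882251), a small repressor of the BMAL1 pair, read 0.482, 0.288 and 0.314 at ZT4 and 20.0, 17.4 and 11.03 at ZT12, with an amplitude of 2.05 ± 0.14 (adjusted p = 9.02e-07). Cry1 read 1.70, 2.56 and 2.07 at ZT8 and 10.3, 12.5 and 14.0 at ZT20 (amplitude 1.18 ± 0.08, adjusted p = 1.14e-06). Ciart and Cry1, which both have an E-box in the windows above, stood at opposite ends of the order of peaks within the group. With the phase borders moved by 1 sampling time (ZT16, ZT20 and ZT0 against ZT4, ZT8 and ZT12) the differences of Per1, Per3 and Ciart turned negative (-0.42, -0.049 and -1.24 log2).

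The output factors DBP and TEF swung widely. Dbp (chr7:45705088-45710203), an activator of D-box genes, had the largest amplitude of all 11003 genes, 2.89 ± 0.14 (adjusted p = 3.55e-08), with a peak at ZT12.3 ± 0.186 h. It read 0.581, 0.521 and 0.330 scaled FPKM at ZT4, 14.8, 13.7 and 36.5 at ZT8, 59.7, 57.2 and 35.0 at ZT12 and 3.21, 1.78 and 1.51 at ZT20, a range of 106-fold between the highest and lowest time means. The ZT8 libraries were the least alike, with replicate 3 above the other two. Tef (chr15:81802421-81826863), a relative of Dbp, had the smallest adjusted p of the condition (4.13e-10), an amplitude of 1.99 ± 0.07 and a peak at ZT13.7 ± 0.128 h. It read 1.68, 2.05 and 1.23 at ZT4 and 34.2, 32.3 and 29.8 at ZT12. Bhlhe40 (DEC1), a repressor that also binds E-boxes, had a smaller amplitude of 0.43 ± 0.06 (adjusted p = 0.00102). Hlf and Bhlhe41 did not reach the level for testing. Among genes linked to the clock but outside these groups, Usp2, a deubiquitinase, peaked at ZT14.6 ± 0.440 h (amplitude 0.74 ± 0.09) and Wee1, a kinase that holds back mitosis, at ZT16.7 ± 0.589 h (amplitude 0.64 ± 0.10, adjusted p = 0.00187).

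**Figure D2:**
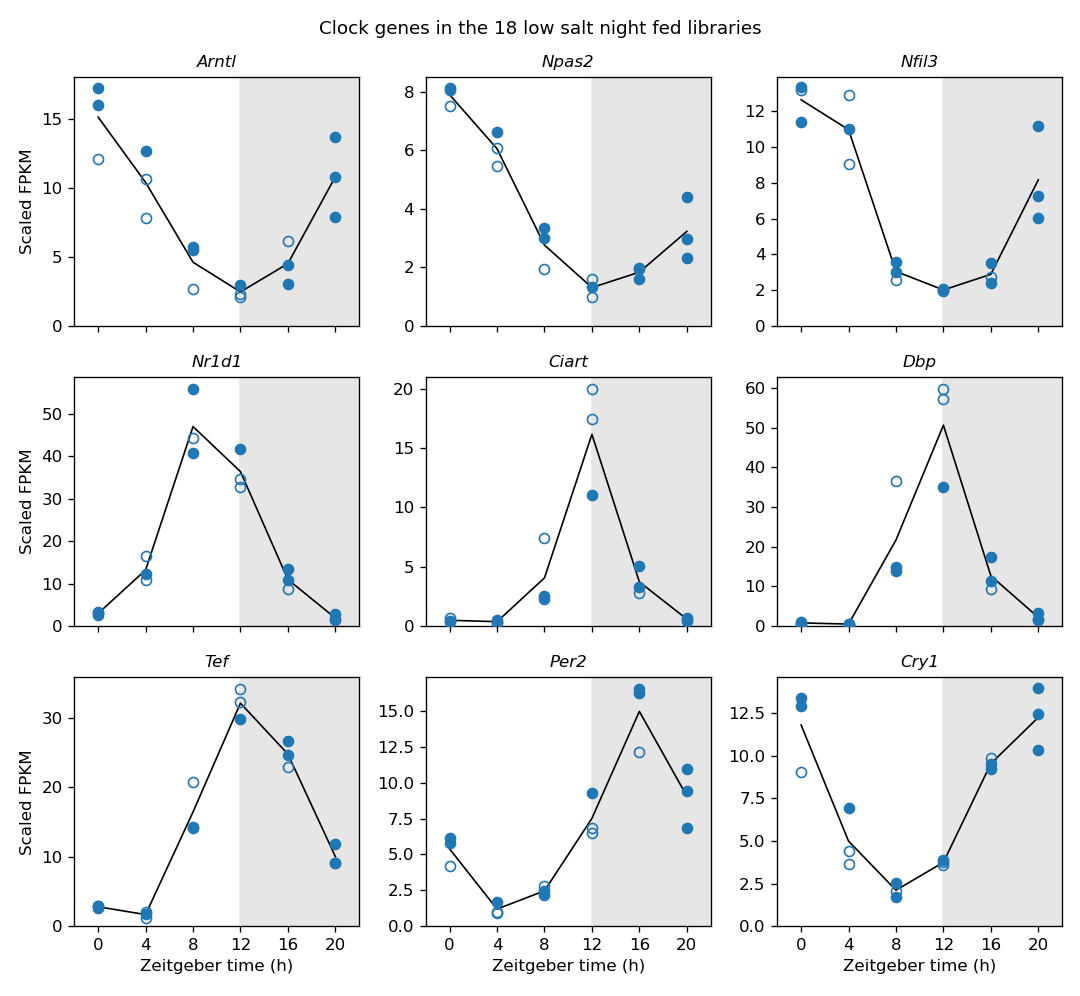
Scaled FPKM (y axis, linear from 0) against zeitgeber time (x axis, h) for 9 clock genes. Each circle is 1 of the 18 libraries, open for the 7 that stand apart in length score, the line joins the means of 3 libraries and the dark phase is shaded. Arntl, Npas2 and Nfil3 are highest at ZT0, Nr1d1 at ZT8, Ciart, Dbp and Tef at ZT12, Per2 at ZT16 and Cry1 at ZT20.

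Cell cycle genes formed 2 waves, with DNA replication genes high late in the night and mitosis genes high after lights on. Of 19 DNA replication and S phase genes tested, 13 were rhythmic, with a mean peak at ZT20.4. In the dark phase 1 of the 19 was called higher, against 3.51% of all genes, and the median dark minus light difference of the 19 was 0.17 log2. All 20 mitosis and G2 genes were rhythmic, with a mean peak at ZT2.34, and 16 of them were lower in the dark phase. Their median dark minus light difference was -0.72 log2, against 0.00047 over all genes tested. Of all genes, 14.8% were rhythmic and 3.26% lower in the dark phase. Because RNA of the whole sample was sequenced, fewer dividing cells and less RNA per dividing cell cannot be told apart. Mcm3, a subunit of the replicative helicase, read 6.88, 8.01 and 8.64 scaled FPKM at ZT12 and 19.6, 15.2 and 15.6 at ZT20 (amplitude 0.48 ± 0.07, adjusted p = 0.00127). Uhrf1, which maintains DNA methylation behind the fork, peaked at ZT20.5 ± 0.588 h, and Cdc45, a helicase cofactor, at ZT21.5 ± 0.559 h. For these 3 genes all libraries of ZT20 lie above all of ZT12.

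Among the mitosis genes, Cenpa, the centromere histone, had an amplitude of 0.83 ± 0.10 (adjusted p = 2.03e-04) and read 18.1, 22.1 and 16.2 scaled FPKM at ZT0 and 5.38, 6.22 and 7.39 at ZT16. Ccnb2 (cyclin B2) was 1 of the 11 genes with every dark library below every light library, with a median of 19.1 in the light phase and 9.43 in the dark phase and a difference of -0.90 ± 0.12 log2 (adjusted p = 4.11e-04). Cdc25b, an activating phosphatase for mitotic entry, and Knstrn, a spindle protein, belonged to the same 11, with differences of -0.67 ± 0.09 and -0.80 ± 0.12. Cdc20, an activator of the anaphase-promoting complex, peaked at ZT3.32 ± 0.511 h (amplitude 0.67 ± 0.09). ZT4 replicate 3 was the highest library for Cenpa, Ccnb2 and Cdc20, and it is 1 of the 7 with a low length score. Leaving out the 7 takes 2 of 3 libraries at ZT4 and at ZT12. Without the 7 libraries 12 of 20 mitosis genes were rhythmic and 16 were lower in the dark phase, and 12 of 19 replication genes were rhythmic. After adjustment for the score the mitosis counts were 20 and 20, in a fit where 38.5% of all genes were rhythmic and 1213 of 11003 lower. With the deposited FPKM left unscaled 9 of 20 mitosis and 4 of 19 replication genes were rhythmic, against 642 of all 11003 genes. Ccnd1 (cyclin D1) peaked between the 2 waves, at ZT23.4 ± 0.506 h (amplitude 0.40 ± 0.05, adjusted p = 6.42e-04).

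**Figure D3:**
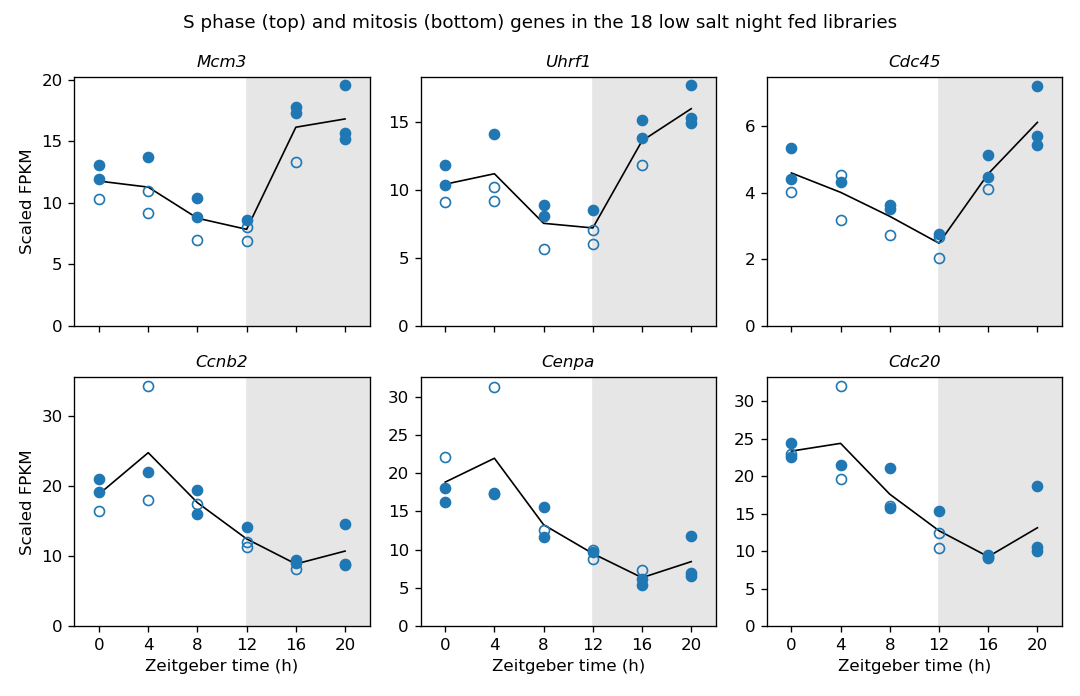
Scaled FPKM (y axis, linear from 0) against zeitgeber time (x axis, h) for 3 replication genes (top) and 3 mitosis genes (bottom), drawn as circles per library (open for the 7 of low length score) with a line through the means of 3. The replication genes are lowest at ZT12 and highest at ZT20, and the mitosis genes are highest at ZT4 and lowest at ZT16.

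The leading genes of epithelial defence were high at ZT0 and ZT4 and lower at the 4 other times. Of 15 antimicrobial and defence genes tested, 10 were rhythmic and 8 were lower in the dark phase, with none higher (14.8% rhythmic and 3.26% lower over all genes). Of the 10, 8 peaked between ZT1.24 and ZT4.91, and Zg16 and Reg4, which goblet and deep crypt secretory cells also express, peaked at ZT13.1 and ZT12.4. Reg3b and Reg3g (chr6:78370657-78373466 and chr6:78466269-78468872), which encode secreted lectins that act on bacteria near the epithelium, had amplitudes of 2.37 ± 0.43 (adjusted p = 0.00538) and 2.53 ± 0.44 (adjusted p = 0.00453). Reg3g read 1646, 773 and 1051 scaled FPKM at ZT0, 1309.7, 386 and 1519 at ZT4, 16.3, 120.4 and 46.6 at ZT12 and 327, 13.6 and 129 at ZT20. Every library of ZT0 and ZT4 was above every other library, although the ZT20 libraries were spread widely. Reg3b read 6489.8, 3461 and 4888 at ZT0 and 81.2, 614 and 244 at ZT12. Without the 7 libraries of low length score 8 of 15 genes were rhythmic, 6 were lower and 2 higher in the dark phase, and with the deposited FPKM left unscaled 4 were lower and 1 higher. Left unscaled, 121 of all 11003 genes were lower and 209 higher. When ZT16, ZT20 and ZT0 were set against ZT4, ZT8 and ZT12 only 1 of 15 was lower, against 275 of 11003 genes. The differences of Reg3b and Reg3g then turned positive (0.58 and 0.40 log2).

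Duoxa2 and Nos2 of the same list were also high at ZT0 and ZT4. Duoxa2, the maturation factor of the hydrogen peroxide-forming oxidase DUOX2, read 75.1, 39.3 and 59.9 scaled FPKM at ZT4 and 6.90, 10.1 and 17.8 at ZT8, with no overlap. Nos2, the inducible nitric oxide synthase, read 7.84, 1.57 and 4.81 at ZT4 and 0.249, 0.745 and 0.547 at ZT8. Its libraries of these times do not overlap either. The change from ZT20 to ZT0 was 2.88 ± 0.37 log2 for Duoxa2 (adjusted p = 0.00129) and 2.73 ± 0.36 for Nos2 (adjusted p = 0.00134). Other genes that were high at ZT0 and ZT4 are among those named for the size of a step. Socs3, a feedback inhibitor of cytokine signalling through STAT3, read 43.2, 15.2 and 31.4 at ZT4 and 2.40, 2.45 and 2.23 at ZT16 (amplitude 1.51 ± 0.15, adjusted p = 5.70e-05). Clca4b, of the calcium-activated chloride channel regulator family, had the largest change of any gene called from ZT20 to ZT0, a rise of 4.43 ± 0.62 log2 (adjusted p = 0.00196) and a change of -4.15 ± 0.62 from ZT4 to ZT8 (adjusted p = 0.00471). Its mean was 54.4 ± 36.3 (SD, n = 3) at ZT4 and 2.07 ± 0.926 at ZT8. Lrg1, an acute-phase glycoprotein, Pla2g4c, a cytosolic phospholipase, and Lbp, the lipopolysaccharide binding protein, fell from ZT4 means of 13.3, 25.7 and 4.55 to ZT8 means of 0.2504, 1.70 and 0.740.

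**Figure D4:**
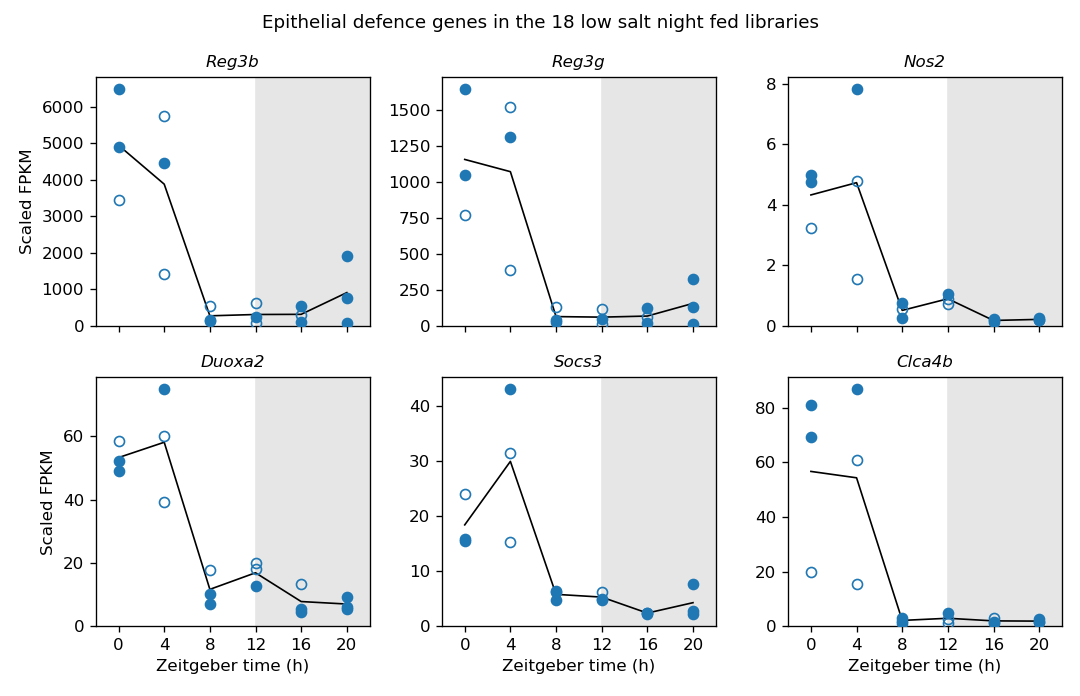
Scaled FPKM (y axis, linear from 0) against zeitgeber time (x axis, h) for 6 genes, with circles for the 18 libraries (open for the 7 of low length score) and a line through the means of 3. Reg3b, Reg3g, Nos2 and Duoxa2 are of the defence list, and Socs3 and Clca4b are among the genes named for the size of a step. For each gene the means of ZT0 and ZT4 lie above those of the other times, and the ZT4 libraries are spread widely.

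The antigen-presenting MHC class II genes also peaked early in the light, and 5 of the 6 tested were rhythmic (mean peak ZT3.84) with 3 lower in the dark phase. The shares over all genes were 14.8% and 3.26%. H2-Eb1 read 20.6, 19.6 and 24.02 scaled FPKM at ZT0, 11.7, 11.01 and 38.3 at ZT4 and 6.26, 5.23 and 8.54 at ZT20 (amplitude 0.68 ± 0.16, adjusted p = 0.0305), and ZT4 replicate 3 was the highest library. Of the 8 macrophage and dendritic cell markers, 3 passed the filter and none was rhythmic (1 at an unadjusted p below 0.05). Their summed level was 4.48 to 11.3 scaled FPKM at ZT0, 5.39 to 11.8 at ZT4, 5.12 to 8.83 at ZT8, 7.64 to 7.79 at ZT12, 3.34 to 4.28 at ZT16 and 3.82 to 6.23 at ZT20, and their part in the MHC class II rhythm was not tested. With the deposited FPKM left unscaled 1 of the 6 MHC class II genes was rhythmic, without the 7 libraries all 6 were, and in a direct cosine fit to the libraries 1 was. Of all 11003 genes, 642 were rhythmic when left unscaled and 1463 in the direct cosine fit. Interferon-induced genes ran at another phase. Of 16, 8 were rhythmic with a mean peak at ZT11.5, none was called between dark and light, and Isg15 read 25.5, 48.3 and 25.2 at ZT0 and 114, 223 and 129 at ZT12 (amplitude 0.88 ± 0.18, adjusted p = 0.0130). Of the 16, 5 were rhythmic without the 7 libraries.

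Genes of electrogenic sodium uptake and the aldosterone response were higher at night. In the colon, aldosterone acts through the mineralocorticoid receptor to raise sodium entry through the epithelial sodium channel ENaC, and the sodium pump then moves the sodium on toward the blood. Of 14 genes tested, 10 were rhythmic and 9 were higher in the dark phase, with a mean peak at ZT14.7 and a median dark minus light difference of 0.58 log2. The median change of the 14 was 0.58 log2 from ZT4 to ZT8, 0.31 from ZT8 to ZT12 and 0.072 from ZT12 to ZT16. The first of these steps lies in the light phase, and 1 of the 14 was called higher in it. The list was written with earlier results of these data known. Over all genes 14.8% were rhythmic and 3.51% higher in the dark phase. All 3 ENaC subunits were rhythmic, at ZT13.6 (Scnn1a, amplitude 0.47 ± 0.09), ZT14.0 (Scnn1b, 0.57 ± 0.14) and ZT13.4 (Scnn1g, 1.19 ± 0.20). Scnn1g, the least abundant, read 0.202, 0.220 and 0.385 scaled FPKM at ZT0 and 5.85, 1.29 and 3.14 at ZT16, with no overlap between these times. At ZT20 it ranged from 0.182 to 2.31, so that 1 dark library lay at the level of the ZT0 group. Scnn1b was not called between the phases (adjusted p = 0.0950).

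Of the regulators, Sgk1, the kinase that aldosterone induces to keep ENaC at the surface (chr10:21882184-21999903), read 30.8, 16.3 and 20.9 scaled FPKM at ZT0 and 82.4, 57.7 and 72.7 at ZT16. Its dark libraries (lowest 45.5, median 65.9) all lay above its light libraries (highest 44.2, median 30.8), and the difference was 1.16 ± 0.16 log2 (adjusted p = 5.48e-04). Hsd11b2, the enzyme that inactivates corticosterone and so keeps it off the mineralocorticoid receptor, did not overlap between the phases either, with 98.3, 126.2 and 89.0 at ZT4 and 293, 220.1 and 255 at ZT16 and a difference of 0.83 ± 0.08 (adjusted p = 3.13e-05). Fkbp5 and Tsc22d3, induced by steroid receptors, differed by 0.71 ± 0.10 and 0.57 ± 0.10. Fxyd4 (CHIF), a regulator of the sodium pump, differed by 1.32 ± 0.29 (adjusted p = 0.0129) with libraries between 31.1 and 341 scaled FPKM. Atp1b1, the β subunit of the pump, missed the threshold (adjusted p = 0.0608). The receptors themselves, Nr3c2 (mineralocorticoid) and Nr3c1 (glucocorticoid), had amplitudes of 0.28 ± 0.15 and 0.13 ± 0.13 with adjusted p = 0.394 and 0.714. Nedd4l, the ligase that removes ENaC, had an amplitude of 0.07 ± 0.04 (adjusted p = 0.418). After adjustment for the length score, by which 38.5% of all genes were rhythmic, Nr3c2 passed (adjusted p = 0.00184) and Nedd4l and Nr3c1 did not. Without the 7 libraries 6 of 14 genes were rhythmic and 7 were higher in the dark phase. With the moved phase borders 2 of 14 were higher in the later times, against 316 of all 11003 genes. The differences of Scnn1a and Scnn1g then turned negative (-0.070 and -0.18 log2).

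Some other transport genes of the surface epithelium were also higher in the dark phase. Of 9 genes of electroneutral sodium chloride absorption, 4 were rhythmic and 3 were higher in the dark phase. Over all genes 14.8% were rhythmic and 3.51% higher. Car2 (carbonic anhydrase 2, which supplies protons and bicarbonate for the exchangers) read 313, 319 and 247 scaled FPKM at ZT4 and 996, 774 and 731 at ZT16, did not overlap between the phases and differed by 1.03 ± 0.09 log2 (adjusted p = 8.67e-06). The chloride-bicarbonate exchanger Slc26a3 differed by 0.74 ± 0.18 (adjusted p = 0.0197). Slc9a8, a sodium-proton exchanger, was the rhythmic member with another time, a peak at ZT6.53 ± 0.956 h (amplitude 0.20 ± 0.05). Guca2a, the guanylin gene whose peptide drives chloride secretion, was 1 of 3 rhythmic genes among 7 guanylin and aquaporin genes, with a peak at ZT13.3 ± 0.823 h (amplitude 0.62 ± 0.13), and the water channels Aqp1 and Aqp11 were the others. Of 8 anion secretion genes, 1 was rhythmic, Best2, a goblet cell anion channel (ZT14.1, amplitude 0.52 ± 0.10). Neither this share nor the 1 of 12 in the tight junction group exceeds the share of all genes. The claudin Cldn8, a sealing protein of the tight junction, was the 1 rhythmic gene of 12 in its group, with 45.9, 25.3 and 53.1 at ZT0 and 9.35, 9.38 and 8.49 at ZT12 and a peak at ZT0.787 ± 0.5502 h (adjusted p = 0.00114).

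Many genes of drug metabolism were higher in the dark phase. Of 25 xenobiotic metabolism genes tested, 16 were rhythmic (mean peak ZT14.1) and 13 were higher in the dark phase, with none lower. The shares over all genes were 14.8% rhythmic and 3.51% higher. The median dark minus light difference of the 25 was 0.46 log2. Cyp4b1, a cytochrome P450 (chr4:115624725-115647723), read 0.427, 1.58 and 0.403 scaled FPKM at ZT4 and 10.7, 12.2 and 8.78 at ZT20 and differed by 2.04 ± 0.17 between the phases (adjusted p = 8.35e-06). Por, the reductase that feeds electrons to all microsomal P450 enzymes, differed by 0.58 ± 0.08 (adjusted p = 3.51e-04). Abcb1a, the P-glycoprotein drug efflux pump, read 27.2, 22.6 and 13.2 at ZT4 and 57.1, 57.2 and 47.0 at ZT8, so its rise came before lights off. Ces1d, a carboxylesterase, peaked later, at ZT17.5 ± 0.394 h (amplitude 0.94 ± 0.10). Genes outside the list that did not overlap between the phases included the glutathione transferase Gsta2, the monooxygenase Fmo5 and the aldehyde dehydrogenase Aldh1a7, with differences of 0.93 ± 0.10, 1.06 ± 0.11 and 1.07 ± 0.09. Nr1i3, the drug-sensing receptor CAR, peaked at ZT12.8 ± 0.657 h (amplitude 0.74 ± 0.13, adjusted p = 0.00416). With the moved phase borders 3 of the 25 xenobiotic genes were higher in the later times, against 316 of all 11003 genes.

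**Figure D5:**
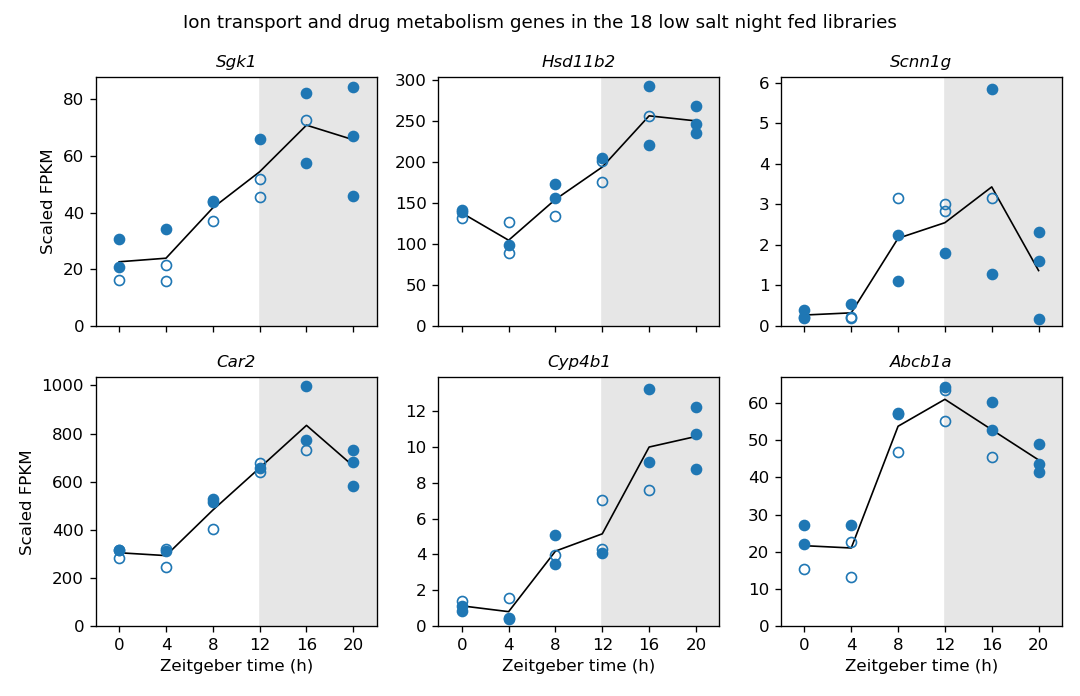
Scaled FPKM (y axis, linear from 0) against zeitgeber time (x axis, h) for 4 genes of ion transport and its control and 2 of drug metabolism, as circles for the 18 libraries (open for the 7 of low length score) with a line through the means of 3. Abcb1a is high from ZT8 on, and Sgk1, Hsd11b2, Scnn1g and Car2 are highest at ZT16.

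Rhythmic genes of fuel use had peaks through much of the day. Of 21 genes of fatty acid oxidation and fasting, 12 were rhythmic, with peaks from ZT5.93 to ZT16.8. Slc25a20, the carnitine carrier of the mitochondrial membrane, peaked at ZT8.84 ± 0.545 h (amplitude 0.36 ± 0.05, adjusted p = 0.00104), in the fasting phase, and Plin2, a lipid droplet coat protein, at ZT13.0 ± 0.557 h (amplitude 0.45 ± 0.07). Of 11 fatty acid synthesis genes, 5 were rhythmic. Srebf1, the transcription factor that induces this pathway, read 13.6, 13.9 and 14.9 scaled FPKM at ZT4 and 28.5, 24.8 and 29.2 at ZT20 (amplitude 0.45 ± 0.05, adjusted p = 2.85e-04). The desaturases Scd1 and Scd2 peaked at ZT20.8 ± 0.593 h and ZT19.6 ± 0.621 h. Me1 (malic enzyme, a source of NADPH for the pathway) ran the other way, with a peak at ZT3.32 ± 0.737 h and a dark minus light difference of -0.70 ± 0.16 log2 (adjusted p = 0.0168). Of 22 cholesterol synthesis genes, 4 were rhythmic, a share near the 14.8% of all genes. Dhcr7, which makes cholesterol from its last precursor, differed by 0.47 ± 0.06 log2 between the phases (adjusted p = 2.00e-04). Slc2a5, the fructose transporter, had an amplitude of 0.92 ± 0.08 and a peak at ZT10.9 ± 0.327 h (adjusted p = 1.26e-05). It read 0.204, 0.405 and 0.340 at ZT0 and 3.41, 3.01 and 1.82 at ZT12. With the deposited FPKM left unscaled 4 of 21 fatty acid oxidation and 1 of 22 cholesterol genes were rhythmic, against 642 of all 11003 genes.

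Some ER chaperone genes rose between ZT12 and ZT16. Of 18 ER folding genes, 11 were rhythmic with a mean peak at ZT20.1, and 4 rose from ZT12 to ZT16, a step in which 29 genes (0.264%) rose and 27 (0.245%) fell over the whole table. Sdf2l1, an ER chaperone cofactor, read 17.0, 17.2 and 19.8 scaled FPKM at ZT12 and 28.9, 41.3 and 38.0 at ZT16, and Calr (calreticulin) peaked at ZT20.5 ± 0.514 h (amplitude 0.40 ± 0.05). Of 19 replication genes, 6 rose in the same step. Among 15 heat shock genes, 4 were rhythmic (14.8% of all genes were) and none was called at this step. Hspa8, the constitutive HSC70 chaperone, read 857, 1049 and 1082 at ZT12, 1532, 2283 and 2207 at ZT16 and 891, 1372 and 635 at ZT20, so that all ZT16 libraries lay above the rest. Stip1, which couples HSP70 to HSP90, rose by 1.11 ± 0.23 log2 (adjusted p = 0.0437), as did the collagen prolyl hydroxylase P4ha1 (1.11 ± 0.22). Both cold-inducible RNA-binding genes were rhythmic and peaked earlier than the heat shock genes. Cirbp was highest at ZT8 (39.4, 34.4 and 37.9) and low at ZT16 (18.1, 11.5 and 11.5), with a peak at ZT7.32 ± 0.572 h, and Rbm3 peaked at ZT10.4 ± 0.462 h. With the deposited FPKM left unscaled 3 of 18 ER and 2 of 15 heat shock genes were rhythmic, and without the 7 libraries 1 heat shock gene was. Left unscaled, 642 of all 11003 genes were rhythmic. Without ZT16 replicate 2 no gene was called from ZT12 to ZT16 in either direction.

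The transcriptome changed mostly at 2 of the 6 steps between neighbouring times. From ZT4 to ZT8, 105 genes (0.954%) rose and 62 (0.563%) fell, and from ZT20 to ZT0, 124 (1.13%) rose and 90 (0.818%) fell. Dbp rose most from ZT4 to ZT8, by 4.37 ± 0.34 log2 (adjusted p = 1.06e-05), and Tef by 2.97 ± 0.16. Of 25 xenobiotic genes, 6 rose at this step and 6 fell from ZT20 to ZT0. Cyp4b1 changed by -2.77 ± 0.30 from ZT20 to ZT0 (adjusted p = 4.50e-04), the largest fall of that step among the genes named, and Sgk1 by -1.52 ± 0.28. The somatostatin receptor Sstr1 was low only at ZT0 and ZT4 among the 6 times, with means of 1.17 and 1.20 against 6.94 at ZT8, and changed at both steps. Phgdh, the first enzyme of serine synthesis, had its peak in the same early block (ZT1.87 ± 0.691 h, adjusted p = 0.00558).

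The other 3 steps held few calls. From ZT0 to ZT4, 2 genes (0.0182%) rose, Nr1d1 and the cell cycle regulator Rgcc, and 2 (0.0182%) fell, Per2 among them. From ZT8 to ZT12, 6 genes (0.0545%) rose, among them Ciart (2.01 ± 0.34 log2), Per2, Usp2, Tef and Hist3h2a, and 1 (0.00909%) fell, Ddc, an enzyme of serotonin and dopamine synthesis. From ZT16 to ZT20, 1 gene (0.00909%) rose, Nfil3, and 5 (0.0454%) fell: Dbp, Nr1d1, Nr1d2, Per3 and Tef. Leaving out single libraries moved the counts of the larger steps: 28 genes were called from ZT4 to ZT8 without ZT8 replicate 1, and 38 from ZT20 to ZT0 without ZT20 replicate 2.

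In all, 386 genes were higher and 359 lower in the dark phase, so that 51.8% of the calls were higher, and 63.3% were with the deposited FPKM left unscaled. Hist3h2a, a histone H2A gene, had the second smallest adjusted p after Tef, with all libraries of the dark phase above those of the light phase and a difference of 1.20 ± 0.07 log2 (adjusted p = 1.84e-07). A 12 h component was called in 7 genes (0.0636%). Slc7a9, an amino acid transporter, was high at ZT0 (8.08, 7.45 and 9.95 scaled FPKM) and again at ZT12 (7.13, 7.66 and 8.00) and lower at the times between, with a 12 h amplitude of 0.53 (adjusted p = 0.00213, limma). Prss23, a serine protease, was high at ZT8 (6.64, 5.14 and 4.18) and ZT20 (3.99, 4.9996 and 5.38), with a 12 h amplitude of 0.69 (adjusted p = 0.0223). Ddc had the same 2 high times, with means of 23.5 ± 1.20 at ZT8 and 23.8 ± 2.44 at ZT20 (SD, n = 3) against 15.01 ± 0.685 at ZT12. Duoxa2, Lbp, Tef and Cd177, a surface glycoprotein, were the others called, and Cd177 is named because the count is small, after its values were seen. The 24 h amplitude exceeded the 12 h amplitude in Duoxa2 (1.39 against 1.02) and Lbp (1.17 against 0.69). It did so too in Tef (1.99 against 0.49) and Cd177 (0.82 against 0.48). The 12 h call of these genes therefore does not show 2 highs a day.

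Some groups held no rhythmic gene, or a share near the 14.8% of all genes. None of 18 ribosomal protein genes, 18 respiratory chain genes and 15 immediate early genes was rhythmic by limma, with 3, 2 and none of them below an unadjusted p of 0.05. After adjustment for the length score, by which 38.5% of all genes were rhythmic, 11 of the ribosomal protein, 8 of the respiratory chain and none of the immediate early genes were. None of 4 tuft cell and 9 enteroendocrine markers was rhythmic, with 1 in each below an unadjusted 0.05, and 1 of 9 crypt base markers was, Reg4 (adjusted p = 0.0489). Of 11 goblet cell markers, Klk1 and Zg16 were rhythmic, and their summed level overlapped at all 6 times. The markers of T cells, 6 of which passed the filter, were not rhythmic (2 below an unadjusted 0.05), with a summed level of 21.9 to 55.3 scaled FPKM over the libraries.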

How the data were processed

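Colon RNA was made into stranded mRNA libraries, per the labels' protocols. Tool and build names given in the submitters' processing notes are TopHat2 2.1.1, Cufflinks 2.2.1 and mm10, and their options are not given in the sources here. The deposited values are FPKM per gene, normalized by the authors, with no counts, so read depth is unknown and no counting interval is given. From the FPKM of the 18 libraries (24883 rows), a median-of-ratios factor over 9682 genes was divided out, and log2(value + 0.5) was computed for the 11003 rows with a mean of at least 1, so fold changes are on that scale and understate those of low genes. limma 3.58.1 (R 4.3.3) fitted 1 mean per time (12 residual degrees of freedom), with trend and robust moderation, and contrasts for the 24 h and 12 h components, the dark phase (ZT12, ZT16, ZT20) minus the light phase (ZT0, ZT4, ZT8) and the 6 steps. P-values were adjusted by Benjamini-Hochberg over all rows tested, with a threshold of 0.05. Amplitudes and differences are given ± SE. The procedure was run on simulated data with independent noise for each gene and library. Such noise lacks the length trend that the real libraries share, so the simulation cannot show the rate of false calls here. The gene lists and members were chosen with earlier results of these data known. Genes named are all members of the clock and sodium lists, the 20 largest called amplitudes, the 10 largest called dark and light differences each way without overlap, the 5 largest called changes per step and direction, the 5 largest 12 h amplitudes and, from each list, the 4 genes at most that ranked first in the 24 h test. Predicted genes, immune receptor segments and the 817 rows that share a symbol were not named, and some results are not reported here. Counting options are unknown, so overlapping genes and close paralogs, such as Reg3b and Reg3g or the MHC genes, are uncertain. Alternatives were other pseudocounts, filters, normalizations, moderation, array weights, a replicate block, a shared fit of 72 libraries, other definitions of the phases and leaving out libraries. The length score of a library is the slope of its deviations on log2 transcript length. Its use as a covariate and the omission of the 7 libraries under -0.09 were chosen after seeing the data. That omission leaves 5 residual degrees of freedom and removes 2 of 3 libraries at ZT4 and at ZT12.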

Additional observations from a re-analysis of the deposited data

How the results depend on the processing

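The counts over all genes depended on scaling and on single libraries. With pseudocounts of 0.1 or 1 and with quantile normalization each of the 11 counts stayed within 1.5 times its value. With the deposited FPKM unscaled, 319 genes differed between times, 642 had a 24 h rhythm, 0 a 12 h component, 209 were higher and 121 lower in the dark phase, and 2, 75, 0, 2, 2 and 140 changed at the 6 steps from ZT0 on. That setting moved the median of all genes by 0.22 log2 from ZT4 to ZT8, by -0.27 from ZT8 to ZT12, by 0.17 from ZT12 to ZT16, by 0.13 from ZT16 to ZT20 and by -0.27 from ZT20 to ZT0. With array weights the same counts were 9275, 7019, 2472, 1522 and 1345, and 5709, 4597, 5892, 5180, 16 and 1973. These weights came from 3 libraries a time, ran from 0.164 to 5.88 and were estimated gene by gene because the default estimate did not converge. In a fit shared by all 72 libraries of the 4 salt diet conditions, 1794 genes differed between times, 2517 had a 24 h rhythm, 20 a 12 h component, 563 were lower in the dark phase, and 10, 296, 142, 13 and 493 changed at the steps from ZT0, ZT4, ZT12, ZT16 and ZT20. With the length score as a covariate the counts were 3857, 4233, 637, 1313 higher and 1213 lower, and 1117, 563, 11 and 2107 at the steps from ZT4, ZT12, ZT16 and ZT20. Without the 7 libraries of low score 1076 genes had a 24 h rhythm, 41 a 12 h component, and 1, 10 and 1147 changed at the steps from ZT8, ZT12 and ZT20. With a mean of at least 5 FPKM 217 genes were lower in the dark phase. From ZT8 to ZT12, 4 genes changed with no filter on the mean and 4 without trend and robust moderation. The cause was not tested.

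Leaving out 1 library or all libraries of a replicate number gave 31 to 1094 genes differing between times, 154 to 2215 with a 24 h rhythm, 1 to 28 with a 12 h component, 58 to 429 higher and 51 to 371 lower in the dark phase. The 6 steps from ZT0 on gave 0 to 8, 4 to 218, 0 to 6, 0 to 87, 0 to 6 and 4 to 220. Each lowest count was reached on leaving out a whole number, 6 of the 18 libraries, and those of the 12 h component and of the steps from ZT8 and ZT12 also on leaving out 1 library.

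Whether the replicate numbers pair libraries could not be settled. Same-numbered libraries deviated with a mean correlation of -0.052 (-0.699 to 0.650 over 45 pairs), and 4 of 18 correlated best with their own number. The mean was 0.276 for libraries on the same side of the length score limit and -0.283 for those on opposite sides. A weaker effect of the number could not be seen beside that axis. With the replicate block 559 genes differed between times, 1238 had a 24 h rhythm, 1 a 12 h component, and 88, 0, 26 and 116 changed at the steps from ZT4, ZT8, ZT12 and ZT20.

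Moving the phase borders by 1 sampling time, so that ZT16, ZT20 and ZT0 were set against ZT4, ZT8 and ZT12, reversed the difference of 33 named genes, among them genes that peak near lights off or lights on: Abcb1a -0.14, Ahcy -0.032, Aqp1 -0.11, Aqp11 -0.097, Arntl 0.81, Ciart -1.24, Cldn8 0.47, Dbp -1.52, Fabp2 -0.24, Fth1 -0.0029, Guca2a -0.23, Ly6c1 0.12, Mfsd2a 0.20, Mt1 -0.74, Nfil3 0.63, Npas2 0.31, Nr1d2 -0.73, Nr1i3 -0.37, Pck1 -0.10, Per1 -0.42, Per3 -0.049, Plin2 -0.15, Por -0.040, Prss23 -0.23, Reg3b 0.58, Reg3g 0.40, Scnn1a -0.070, Scnn1g -0.18, Sdc1 -0.075, Slc9a3r1 -0.13, Sstr1 -0.34, St3gal5 -0.47 and Tef -0.14 log2. With ZT16 and ZT20 against ZT4 and ZT8, Arntl (0.016) and Mt1 (-0.050) reversed.

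Without counts the precision of low genes cannot be given, and a difference that missed the threshold is not shown to be absent.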
